A study of Homo sapiens with 8 samples.

Results

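The interaction of cell line and drug was measured for every gene of an RNA sequencing experiment on MCF-10A cells, an established human breast epithelial line that does not form tumours. It is the log2 change with the Hsp70 inhibitor JG-98 in cells labelled NeuT minus the log2 change in cells labelled Empty. A positive value means that the gene rose more, or fell less, in NeuT. The members were all 17693 expressed genes of the 60617 in the deposited count table. Cells of either line stayed untreated or spent 12 h in 1 µM JG-98, which makes 4 groups of 2 libraries. All cells grew in the same medium with horse serum, epidermal growth factor (EGF), hydrocortisone, insulin and cholera toxin. What the Empty and NeuT cells carry is not spelled out in the labels, nor whether each is 1 clone or whether replicates came from separate cultures. P-values therefore measure the spread between these libraries, which may be technical. The stated aim was to compare the sensitivity of transformed cells to the drug.

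Hsp70 chaperones fold proteins and work with cochaperones such as BAG3. The kinase HRI, encoded by EIF2AK1, phosphorylates the translation factor eIF2α when proteins misfold in the cytosol. General translation then slows while the transcription factor ATF4 is translated more, and ATF4 with its partner CHOP (encoded by DDIT3) switches on genes for amino acid import and synthesis, tRNA charging and, under lasting stress, cell death.

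Total counts were between 55050996 and 56861971 per library, except for 37341458 in Empty treated replicate 1. The 10 basal breast epithelial markers checked were all expressed, and their summed level was between 24500 and 34000 CPM (counts relative to the scaled library total) over the 4 groups. Of the 8 fibroblast markers, DCN and COL1A1 passed 1 CPM and 3 were under the limit that a count of 0 allows. The summed level of that list was 8.56 to 9.92 CPM in Empty libraries and 68.4 to 83.0 CPM in NeuT libraries. Among 6 leukocyte markers, 4 were under that limit and CD14 passed 1 CPM, with a summed level of 5.28 to 12.5 CPM. Of 5 endothelial markers, KDR and PECAM1 passed 1 CPM, with a summed level of 9.55 to 17.6 CPM. The part of other cell types in the results was not tested.

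The 2 treated NeuT libraries stood further apart than any other pair. Their median absolute log2 difference was 0.106, against 0.0537 in untreated Empty, 0.0541 in untreated NeuT and 0.0783 in treated Empty. The difference followed gene length. With the well expressed genes ordered by exonic length and cut into 5 equal bins, from the shortest to the longest, the median change in treated NeuT replicate 2 ran from -0.10 to 0.09, and in Empty treated replicate 1 it ran the other way, from 0.06 to -0.06. The other 2 treated libraries were flat, with medians between -0.01 and 0.00. The median interaction over the same bins ran from -0.08 to 0.07. Across 9551 well expressed genes of these 8 libraries, Spearman's rho of interaction with length was 0.37 with all libraries, 0.168 with treated NeuT replicate 1 alone and 0.443 with replicate 2 alone, as a description. Its part in each result was not tested, so the medians of the gene lists described are also given after the length trend was removed from every library.

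**Figure D1:**
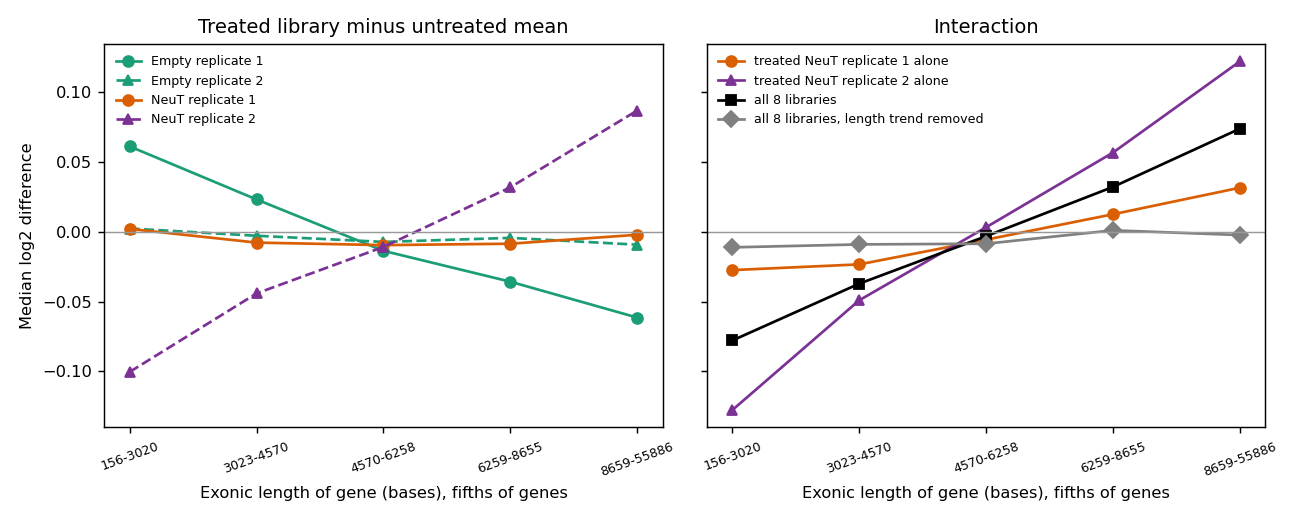
Median log2 difference by 5 bins of genes ordered by exonic length in bases: each treated library against the untreated mean of its line (left) and the interaction with each treated NeuT library alone, with all 8 libraries, and after removal of the length trend (right). Treated NeuT replicate 2 rises with length and Empty treated replicate 1 falls, while the other 2 treated libraries stay near 0.

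With all 8 libraries and edgeR's quasi-likelihood test, 1 gene had an adjusted p under 0.05 for the interaction, which is 0.00565% of those tested. That gene was TXNIP, higher in NeuT. No gene was called lower, while 1378 genes passed an unadjusted p under 0.05 (7.79%), 828 of them higher (4.68%) and 550 lower (3.11%). DESeq2, run on the same counts, called 23 higher and 3 lower, and limma-voom called 1 higher and 0 lower. For the genes described below, DESeq2 adjusted p-values are printed only where they were under 0.05. With DESeq2, genes above that limit included MVD (adjusted p = 0.0761), NRG1 (0.087), CARS1 (0.141), EPRS1 (0.188), CDC20 (0.211), CHAC1 (0.621) and TRIB3 (0.857). For comparison, JG-98 changed 60 genes in Empty (0.339%) and 533 in NeuT (3.01%) by edgeR. That order turned without treated NeuT replicate 2 and held without replicate 1. Each of these fits leaves 1 treated NeuT library against 2 of Empty, so it does not compare the lines on equal terms. The median interaction of all genes was 0.0001. Both treated NeuT changes lay above both Empty changes for 2045 genes (11.6%) and below both for 1834 (10.4%).

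TXNIP encodes an arrestin-like protein that limits glucose uptake and binds thioredoxin. It lies on chromosome 1, from 145992435 to 145996600 of GRCh38 on the minus strand. In Empty cells it stood at 149 and 154 CPM untreated and at 103 and 100 CPM after JG-98. In NeuT cells it stood at 432 and 415 CPM untreated and at 478 and 508 CPM after JG-98. No 2 groups overlapped: both treated Empty libraries were below their untreated pair, and both treated NeuT libraries were above theirs. The log2 change was -0.58 (SE 0.0548, edgeR adjusted p = 7.5e-05) in Empty and 0.22 (SE 0.0532, edgeR adjusted p = 0.0316) in NeuT. The interaction was 0.80 (SE 0.0764, 95% interval 0.64 to 0.96, edgeR adjusted p = 0.000182), a difference larger than the spread between replicates. It was 0.76 with treated NeuT replicate 1 alone and 0.84 with replicate 2 alone. In the authors' deposited tables, the log2 change of TXNIP was -0.57 in Empty and 0.22 in NeuT.

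The RefSeq promoter of TXNIP is shown because this is the gene called for the interaction. The window holds the 250 bases before the RefSeq gene start (GRCh38.p14, chr1:145996580-145996829, minus strand), written 5′ to 3′ along the gene, and the capitals mark a match to a pair of CACGNG half-sites set 5 bases apart, the pattern of carbohydrate response elements, where glucose-sensing factors bind.
TXNIP: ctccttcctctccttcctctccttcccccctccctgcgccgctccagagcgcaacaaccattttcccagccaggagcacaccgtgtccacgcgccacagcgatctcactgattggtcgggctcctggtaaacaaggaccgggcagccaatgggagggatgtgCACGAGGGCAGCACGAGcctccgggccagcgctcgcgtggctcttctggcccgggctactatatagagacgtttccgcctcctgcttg
The match starts 88 bases before the gene start. Searched on both strands, that pattern was found in 16 of 27305 RefSeq promoters of this length (0.0586%) and in 12 of the 11651 tested genes with an entry (0.103%). A match is a description of these letters and not of factor binding. ARRDC4, an arrestin relative of TXNIP that also limits glucose uptake, fell in both lines (edgeR adjusted p = 7.5e-05 in Empty and 0.00551 in NeuT). Its levels were 21.2 and 22.3 CPM in untreated Empty, 12.0 and 10.9 CPM in treated Empty, 21.6 and 20.7 CPM in untreated NeuT, and 14.7 and 15.6 CPM in treated NeuT. Its interaction was 0.45 (SE 0.125) and did not pass (edgeR adjusted p = 0.448). Over the 6 tested genes of the list of TXNIP, other arrestins and their glucose-sensing regulators, the median interaction was 0.065, or 0.0452 without the length trend and 0.0359 with no filter on low counts. It was 0.08 and 0.14 with treated NeuT replicates 1 and 2 alone. With 1 library dropped it lay between 0.0337 (untreated NeuT replicate 2) and 0.136 (treated NeuT replicate 1), and for treated Empty it was 0.0361 with replicate 1 dropped and 0.107 with replicate 2 dropped.

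**Figure D2:**
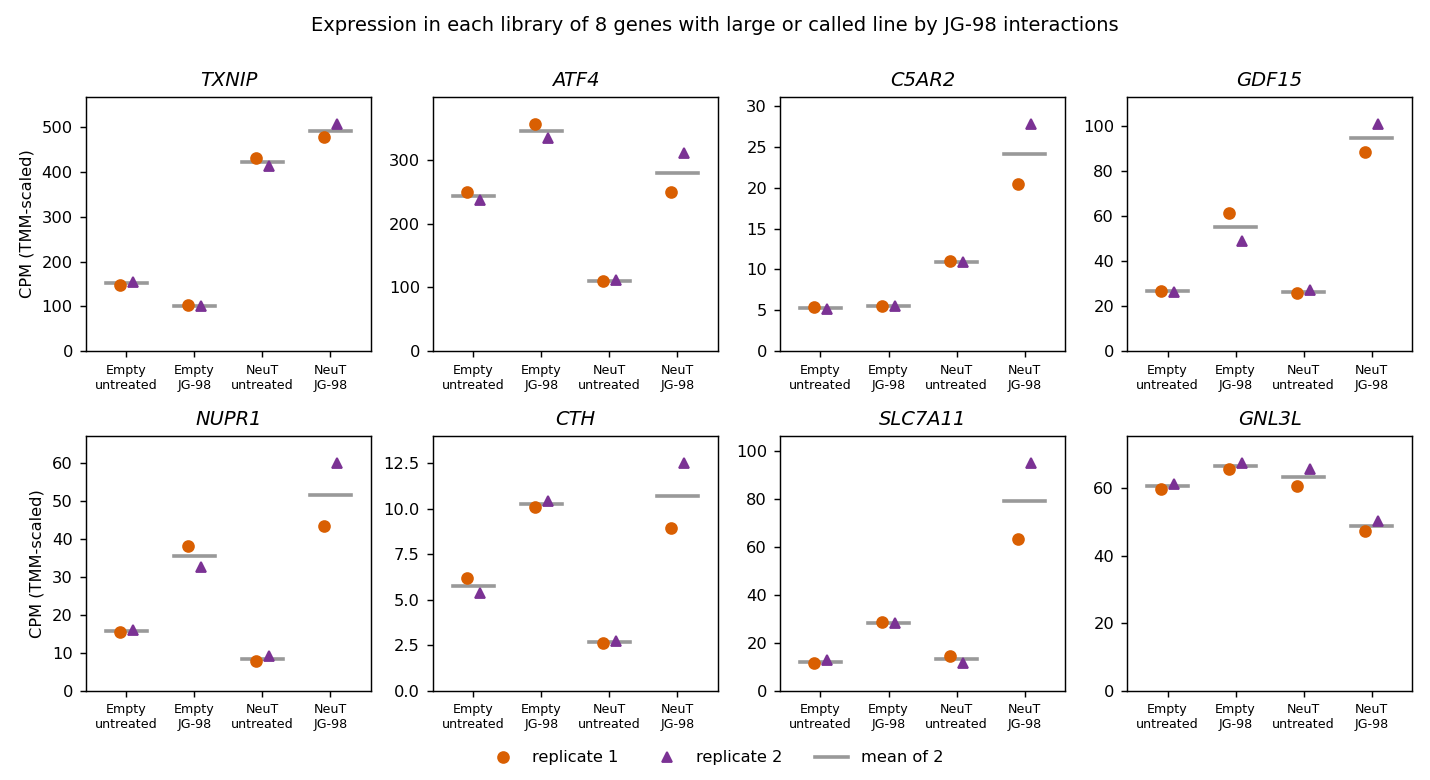
Level in CPM of 8 genes in each of the 8 libraries (circle, replicate 1; triangle, replicate 2; grey line, mean of 2), chosen after their values were seen. TXNIP falls in Empty and rises in NeuT, GNL3L is lowest in treated NeuT, and for ATF4, C5AR2, GDF15, NUPR1, CTH and SLC7A11 the step from untreated to treated is larger in NeuT.

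After TXNIP, the 5 genes with the smallest p-values were ATF4, C5AR2, GDF15, GNL3L and NUPR1, named after their values were seen. None of them passed the edgeR threshold. ATF4, the central transcription factor of the stress response described above, stood at 249 and 237 CPM in untreated Empty, 356 and 334 in treated Empty, 110 and 111 in untreated NeuT, and 249 and 310 in treated NeuT. Treated NeuT thus remained below treated Empty while starting from less than the untreated Empty level. The interaction was 0.83 (SE 0.116, edgeR adjusted p = 0.0579), from a rise of 0.51 in Empty (edgeR adjusted p = 0.0157) and of 1.34 in NeuT (edgeR adjusted p = 1.67e-06). The difference between lines was -1.14 before treatment (edgeR adjusted p = 9.43e-08) and -0.30 under JG-98 (edgeR adjusted p = 0.00828). With DESeq2 the interaction of ATF4 was 0.83 with an adjusted p of 3.8e-08.

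NUPR1, a small stress-induced chromatin protein, stood at 15.5 and 15.9 CPM in untreated Empty, 38.2 and 32.6 in treated Empty, 7.77 and 9.07 in untreated NeuT, and 43.3 and 60 in treated NeuT. The order of the lines was opposite before and under the drug, and no 2 groups overlapped. The interaction was 1.45 (SE 0.211, edgeR adjusted p = 0.122; DESeq2 adjusted p = 3.78e-10). CTH, which makes cysteine from cystathionine, had a similar untreated gap, with 6.17 and 5.35 CPM in untreated Empty and 2.63 and 2.73 CPM in untreated NeuT. Under the drug CTH was at 10.1 and 10.4 CPM in Empty and at 8.92 and 12.5 CPM in NeuT, where the lines overlapped. Its interaction was 1.16 (SE 0.213, edgeR adjusted p = 0.124; DESeq2 adjusted p = 0.0074).

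GDF15, a secreted stress hormone of the TGF-beta family, and DDIT3, which encodes CHOP, differed little between the lines before treatment. GDF15 stood at 26.8 and 26.5 CPM in untreated Empty and 25.8 and 27.0 in untreated NeuT, then at 61.4 and 48.9 in treated Empty and 88.6 and 101 in treated NeuT. DDIT3 stood at 1.80 and 1.79 CPM in untreated Empty and 2.32 and 2.17 in untreated NeuT, then at 4.62 and 4.42 in treated Empty and 11.4 and 15.8 in treated NeuT. For both genes every treated NeuT library was above every treated Empty library. The interaction was 0.80 for GDF15 (SE 0.135, edgeR adjusted p = 0.122; DESeq2 adjusted p = 0.000165) and 1.27 for DDIT3 (SE 0.24, edgeR adjusted p = 0.152; DESeq2 adjusted p = 0.0154). Other genes overlap 39.6% of the exonic length of DDIT3, so its level is uncertain.

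C5AR2 encodes a receptor for the complement fragment C5a. It stood at 5.46 and 5.17 CPM in untreated Empty and 5.56 and 5.52 in treated Empty, against 11 and 10.9 in untreated NeuT and 20.4 and 27.8 in treated NeuT. All 4 Empty libraries were at one level, and the treated NeuT libraries were the highest. The interaction was 1.08 (SE 0.186, edgeR adjusted p = 0.122; DESeq2 adjusted p = 0.00132). GNL3L, a nucleolar GTPase, had the smallest p among genes with a negative interaction. It stood at 59.9 and 61.1 CPM in untreated Empty, 65.7 and 67.4 in treated Empty, 60.6 and 65.8 in untreated NeuT, and 47.2 and 50.4 in treated NeuT, so the treated NeuT libraries were the lowest of the 8. Its interaction was -0.51 (SE 0.0915, edgeR adjusted p = 0.122; DESeq2 adjusted p = 0.00132), and GNL3L was the 1 gene called lower after the length trend was removed (-0.56, edgeR adjusted p = 0.0217).

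Functions were then ranked by the median interaction over the tested members of 57 gene lists. Of these, 40 medians lay within 0.1 of 0. The 6 highest lists were ATF4 and CHOP target genes, amino acid transporters, EGF family ligands and receptors, adhesion genes (laminin-332, integrins and desmosomes), cytosolic tRNA synthetases and complement. The 6 lowest were nuclear copies of mitochondrial genes, the IL-1 family, cholesterol synthesis and uptake, mitosis, luminal keratins and markers, and squamous differentiation. Apart from TXNIP itself no member of any list was called for the interaction by edgeR with all 8 libraries. With treated NeuT replicate 1 alone and then replicate 2 alone, the 2 medians had the same sign in 30 of the 57 lists and opposite signs in 27. In 45 lists the median was larger in size with replicate 2. Both single-library values use the same 6 other libraries. The list level, a median over members in each library, varied between replicates with a pooled SD of 0.21 for the IL-1 family (median interaction -0.20). For nuclear copies of mitochondrial genes the SD was 0.15 (median -0.21), for squamous differentiation 0.13 (-0.11) and for ATF4 and CHOP targets 0.15 (0.36).

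**Figure D3:**
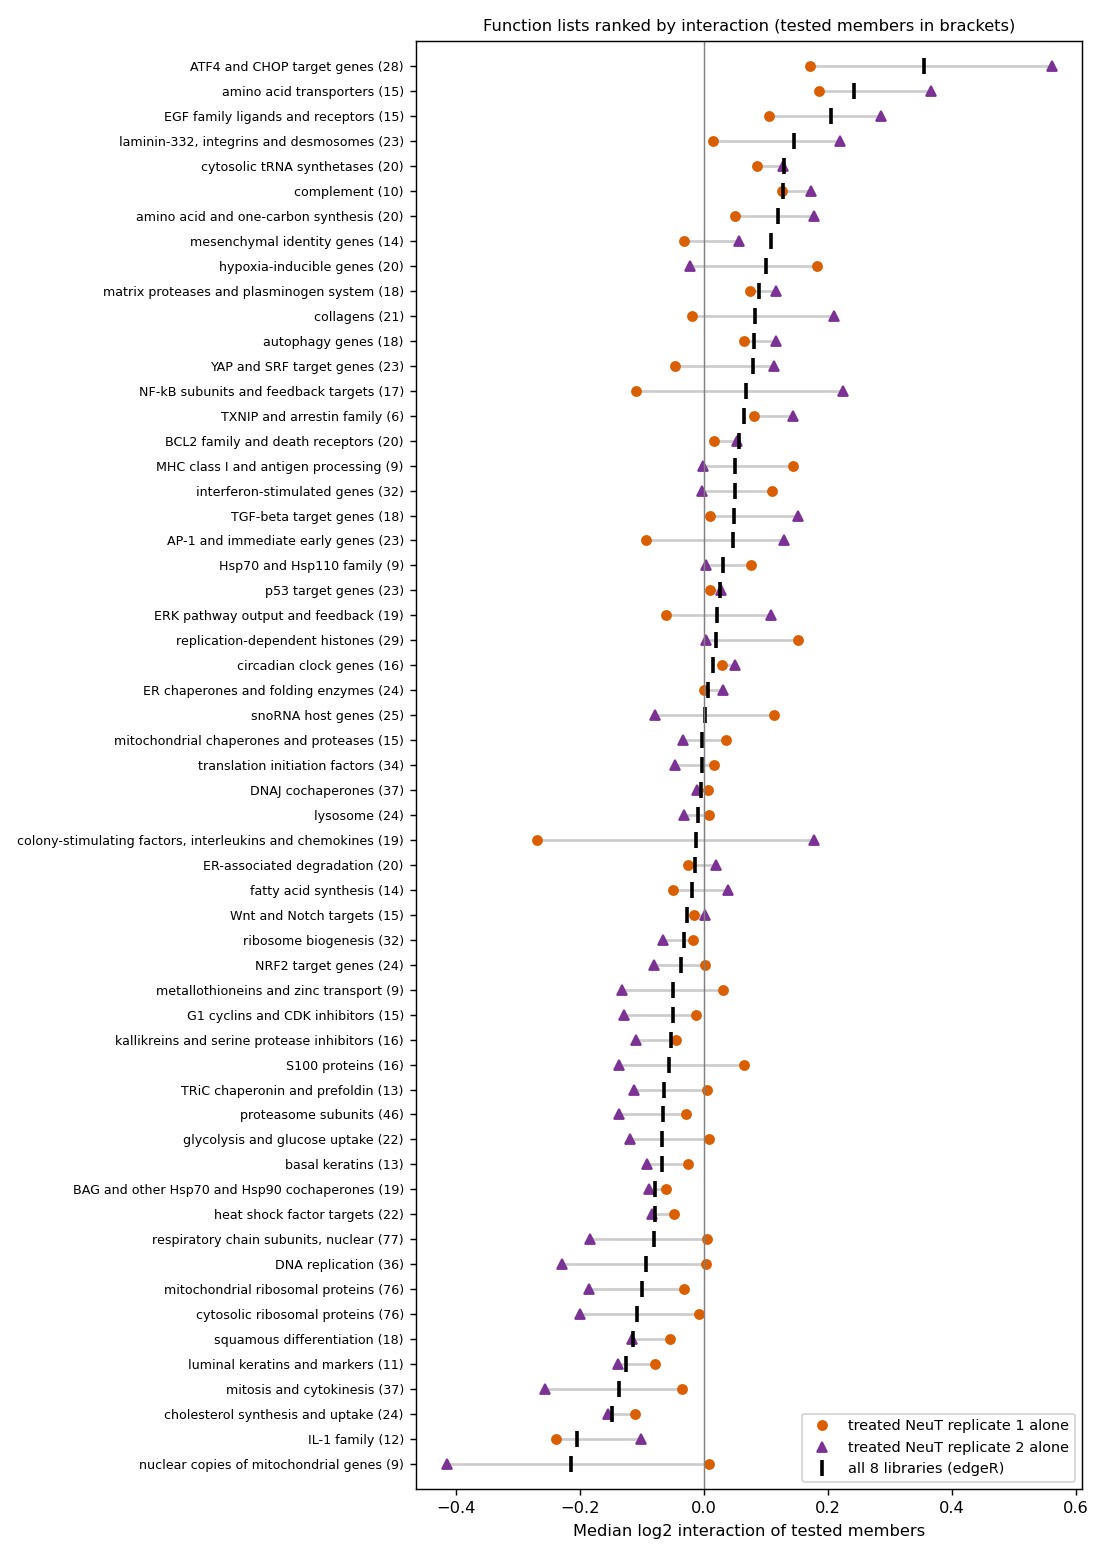
Median log2 interaction over the tested members of each of 57 function lists, with all 8 libraries (bar), with treated NeuT replicate 1 alone (circle) and with replicate 2 alone (triangle). ATF4 and CHOP target genes are highest at 0.36, with 0.17 and 0.56 for the single libraries, and many lists in the middle have the 2 libraries on opposite sides of 0.

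The ATF4 and CHOP target list had the highest median interaction, 0.36 against 0.0001 for all genes, with 23 of its 28 tested members above 0. At an unadjusted p under 0.05, 11 of the 28 were higher and 1 was lower, where 4.68% and 3.11% of all genes were. JG-98 raised 9 of the 28 in Empty and 22 in NeuT by edgeR, where it raised 0.26% and 2.01% of all genes. The median was 0.17 with treated NeuT replicate 1 alone and 0.56 with replicate 2 alone, and 0.39 after the length trend was removed. With replicate 1 alone edgeR called 2 members higher, NUPR1 and STC2 (0.0565% of all genes were called higher). With replicate 2 alone it called 17 (2.63% of all genes). The list holds genes whose rise with this drug in both lines was already known when it was drawn up.

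CHAC1, which degrades glutathione, had the second largest interaction of this list among members with a mean of at least 50 counts. Its levels were 2.04 and 1.40 CPM in untreated Empty, 13.9 and 9.96 in treated Empty, 2.36 and 2.32 in untreated NeuT, and 28.2 and 51.6 in treated NeuT. The treated NeuT libraries were highest but lay far apart, and the interaction of 1.32 (SE 0.644) had an edgeR adjusted p of 0.701 and was 0.804 without treated NeuT replicate 2. STC2, a secreted glycoprotein hormone, stood at 99.5 and 93.9 CPM in untreated Empty, 201 and 178 in treated Empty, 148 and 142 in untreated NeuT, and 429 and 589 in treated NeuT, again with no overlap between treated groups. The interaction of STC2 was 0.84 (SE 0.207) and did not pass (edgeR adjusted p = 0.509). TRIB3, a pseudokinase that feeds back on ATF4, had an interaction of 0.34 (SE 0.184, edgeR adjusted p = 0.701), with 0.11 and 0.54 for the 2 treated NeuT libraries alone. At the low end DDIT4, an inhibitor of mTORC1, had an interaction of -0.18, and ATF5, a relative of ATF4, had -0.12. FGF21 and INHBE had means of 6 and 13.8 counts, so their values carry little information.

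**Figure D4:**
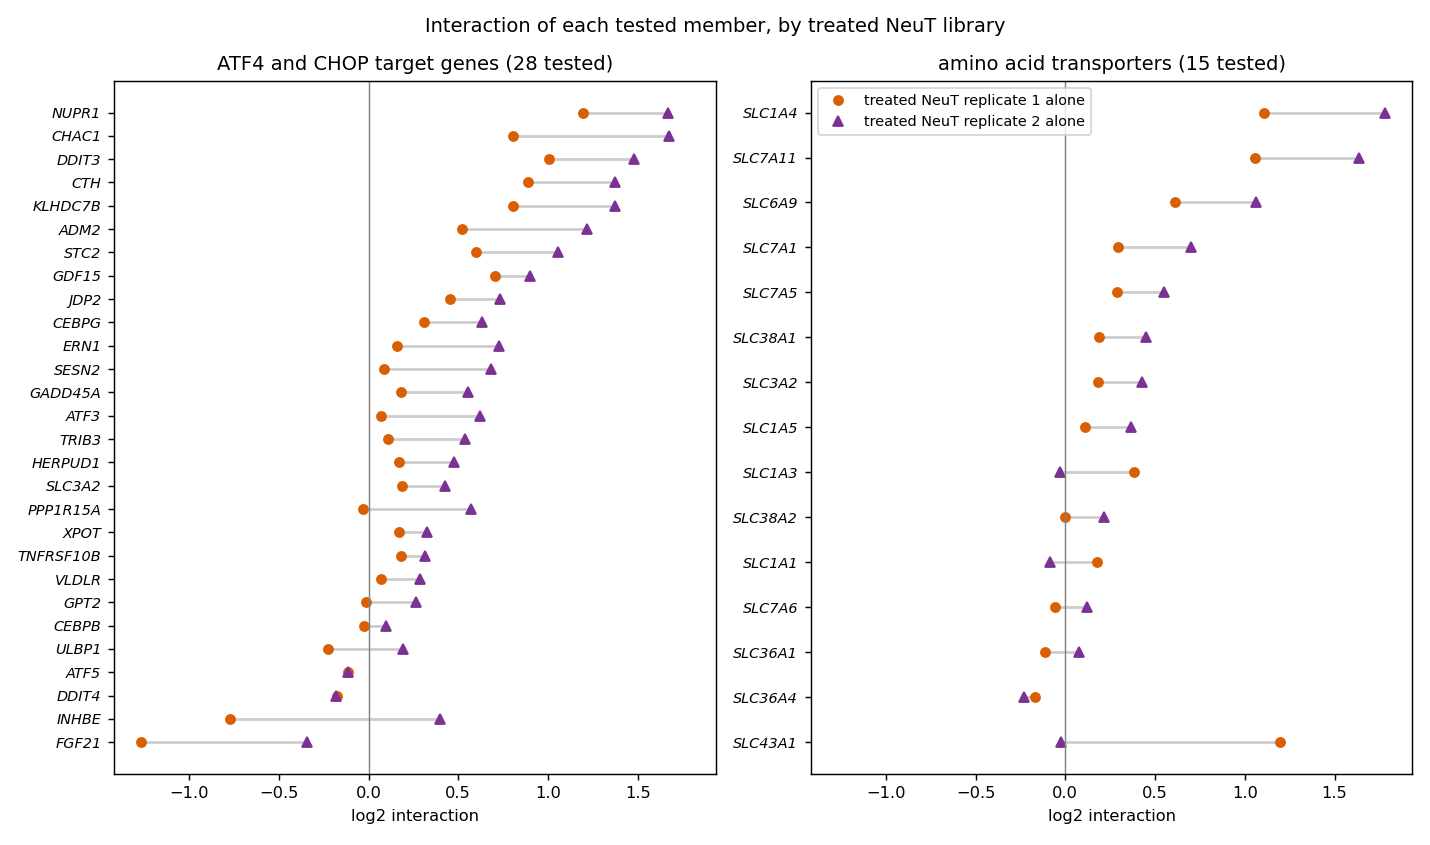
Log2 interaction of each tested member of the ATF4 and CHOP target list (left) and of the amino acid transporter list (right), with treated NeuT replicate 1 alone (circle) and replicate 2 alone (triangle). Most members lie right of 0 with replicate 2 further right, from NUPR1 at 1.20 and 1.67 down to FGF21, which had few counts.

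The C/EBP-ATF response element (CARE), searched as TGATGNAA, is the letter pattern by which ATF4 with a C/EBP partner recognises its targets. It was searched on both strands of the 250 bases before the RefSeq gene start. Of the 23 tested targets with an entry, 5 held it (21.7%), against 179 of 11651 tested genes (1.54%) and 870 of 27305 RefSeq promoters (3.19%). The 5 are shown as 30 bases of GRCh38.p14 around each match, along the gene and in capitals at the match, since they are the members in which the letters could be seen. Where the match is on the opposite strand the capitals show its reverse complement.
CHAC1 (chr15:40953251-40953280, plus strand): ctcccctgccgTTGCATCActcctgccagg
HERPUD1 (chr16:56931955-56931984, plus strand): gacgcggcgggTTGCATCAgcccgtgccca
FGF21 (chr19:48755459-48755488, plus strand): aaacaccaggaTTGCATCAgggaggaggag
KLHDC7B (chr22:50545737-50545766, plus strand): gtttctggtgaTTTCATCAgggccacatca
ATF3 (chr1:212565205-212565234, plus strand): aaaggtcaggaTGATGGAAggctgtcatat
These 5 members did not share a size of interaction. CHAC1 had 1.32 and KLHDC7B 1.08, ATF3, an ATF4 partner, had 0.37, and HERPUD1, which acts in degradation of proteins from the endoplasmic reticulum, had 0.33. With treated NeuT replicates 1 and 2 fitted alone ATF3 had 0.06 and 0.62, and HERPUD1 had 0.16 and 0.47. FGF21 had too few counts for a value. CTH, GDF15 and DDIT3 held no match to these letters in this window, which says nothing of the factor.

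Amino acid transporters had the second highest median, 0.24, with 12 of 15 tested members above 0. At an unadjusted p under 0.05, 8 of 15 were higher and 0 lower (4.68% and 3.11% of all genes). The median was 0.19 and 0.37 with treated NeuT replicates 1 and 2 alone and 0.25 without the length trend. SLC1A4, a carrier of neutral amino acids, stood at 5.04 and 4.07 CPM in untreated Empty, 10.2 and 9.31 in treated Empty, 2.56 and 1.91 in untreated NeuT, and 10.3 and 16.6 in treated NeuT. It started lower in NeuT and ended above both treated Empty libraries, with an interaction of 1.49 (SE 0.318, edgeR adjusted p = 0.349; DESeq2 adjusted p = 0.00132). SLC7A11, the cystine importer, started at like levels of 11.3 and 12.8 CPM in Empty and 14.4 and 11.7 in NeuT. Under the drug SLC7A11 reached 28.6 and 28.1 CPM in Empty and 63.4 and 94.9 in NeuT, with an interaction of 1.37 (SE 0.3, edgeR adjusted p = 0.49; DESeq2 adjusted p = 0.0314). It was the 1 transporter called higher with treated NeuT replicate 1 alone (0.0565% of all genes), and 8 were called higher with replicate 2 alone (2.63%). The glycine carrier SLC6A9 had an interaction of 0.86 (SE 0.18, edgeR adjusted p = 0.296; DESeq2 adjusted p = 0.0124).

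The enzymes fed by these carriers ranked close by. Cytosolic tRNA synthetases, which load amino acids onto tRNAs, had a median of 0.13, with 15 of 20 members above 0. At an unadjusted p under 0.05, 8 were higher and 1 was lower (4.68% and 3.11% of all genes). JG-98 raised 1 of them in Empty (0.26% of all genes) and 11 in NeuT (2.01%). CARS1, for cysteine, had an interaction of 0.46 (SE 0.113, edgeR adjusted p = 0.349), and EPRS1, for glutamate and proline, had 0.36 (SE 0.0955, edgeR adjusted p = 0.407). EPRS1 stood at 260 and 261 CPM in untreated Empty, 300 and 265 in treated Empty, 181 and 176 in untreated NeuT, and 232 and 264 in treated NeuT, so the lines were closer under the drug than before it. The largest interaction in this list, VARS1 at 1.52, rested on replicates that did not agree in either line: its levels were 5.20 and 0.649 CPM in untreated Empty and 4.03 and 0.962 CPM in treated NeuT. The list median was 0.09 and 0.13 with treated NeuT replicates 1 and 2 alone, and 0.11 without the length trend. It was 0.0753 with untreated Empty replicate 1 dropped and 0.0733 with treated NeuT replicate 2 dropped.

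Amino acid and one-carbon synthesis, in place 7, had a median of 0.12. At an unadjusted p under 0.05, 8 of 20 members were higher and 0 lower (4.68% and 3.11% of all genes). The median was 0.05 and 0.18 with treated NeuT replicates 1 and 2 alone. Dropping a library from the fit to all 8 gave 0.0368 (treated NeuT replicate 2), 0.0648 (untreated NeuT replicate 1) and 0.078 (treated Empty replicate 2), and removing the length trend gave 0.11. ALDH1L2, a mitochondrial folate enzyme, stood at 43.9 and 46.3 CPM in untreated Empty, 61.5 and 58.5 in treated Empty, 32.9 and 30.6 in untreated NeuT, and 61.1 and 78.6 in treated NeuT. Its interaction was 0.73 (SE 0.136, edgeR adjusted p = 0.154; DESeq2 adjusted p = 0.00132), and it was called with either treated NeuT library alone (0.52, edgeR adjusted p = 0.0235, and 0.89, edgeR adjusted p = 6.05e-06). ASNS, asparagine synthetase, had an interaction of 1.24 (SE 0.633, edgeR adjusted p = 0.661), on 7 to 84 counts per library. Dropping untreated Empty replicate 2 gave 0.803, and dropping treated NeuT replicate 2 gave 0.825. Other genes overlap 49.3% of its exonic length, so that low level is uncertain.

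The list of EGF family receptors and ligands had the third highest median, 0.20, with 12 of 15 members above 0. At an unadjusted p under 0.05, 5 were higher and 0 lower (4.68% and 3.11% of all genes). The list also holds ERRFI1 and LRIG1, which are neither receptors nor ligands of the family. ERRFI1, 1 of the 5, had an interaction of 0.17, and LRIG1 had 0.20. The median was 0.11 and 0.29 with treated NeuT replicates 1 and 2 alone and 0.19 without the length trend. The ligand NRG1 stood at 9.78 and 9.33 CPM in untreated Empty, 8.61 and 8 in treated Empty, 13.5 and 13.0 in untreated NeuT, and 16.5 and 21.6 in treated NeuT. It was thus lower in each treated Empty library and higher in each treated NeuT library, with an interaction of 0.73 (SE 0.166, edgeR adjusted p = 0.312). The ligand EREG had an interaction of 0.50 (SE 0.14, edgeR adjusted p = 0.457) and the receptor EGFR one of 0.33 (SE 0.113, edgeR adjusted p = 0.547). Without treated NeuT replicate 2 the list median was 0.0933, EREG had 0.319 and EGFR had 0.168. ERBB2, the receptor also known as HER2 or Neu, had an interaction of -0.01 (SE 0.0816, edgeR adjusted p = 0.988), with levels of 83.7 to 87.2 CPM in Empty and 87.8 to 93.7 CPM in NeuT. These are counts of the human gene, and whether transcripts of an introduced gene would be counted there is not known from the labels.

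Adhesion genes for laminin-332, integrins and desmosomes, which anchor basal epithelial cells, had a median of 0.15 with 21 of 23 members above 0. At an unadjusted p under 0.05, 4 were higher (4.68% of all genes). That median was 0.02 with treated NeuT replicate 1 alone and 0.22 with replicate 2 alone. These are long genes, with a median exonic length of 6989 bases against 4267 for all genes, and the median was 0.10 after the length trend was removed. ITGA2, a collagen receptor chain, stood at 266 and 253 CPM in untreated NeuT and at 298 and 466 in treated NeuT, so its interaction of 0.33 (SE 0.307) was -0.02 in one library and 0.62 in the other. DSP, a desmosome plaque protein, and DST, a linker of hemidesmosomes, had interactions of 0.37 (SE 0.126) and 0.38 (SE 0.14). Without treated NeuT replicate 2 these were 0.181 and 0.215, and DST had 0.21 after the length trend was removed. With treated NeuT replicate 2 alone 10 of the 23 members were called higher (2.63% of all genes), and with replicate 1 alone 0 were (0.0565%).

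Complement, a set of secreted and surface defence proteins, was the sixth list, with a median of 0.13 and 7 of 10 members above 0. At an unadjusted p under 0.05, 0 of the 10 were higher or lower (4.68% and 3.11% of all genes). The median was 0.0704 with at least 10 counts required in every library, 0.0838 with libraries thinned to equal depth, 0.196 with no filter on low counts and 0.206 with limma-voom. It was 0.13 and 0.17 with treated NeuT replicates 1 and 2 alone, and 0.10 without the length trend. C3, its central component and the most abundant of those named, stood at 831 and 843 CPM in untreated Empty, 795 and 833 in treated Empty, 1900 and 1840 in untreated NeuT, and 1950 and 2100 in treated NeuT. Its interaction was 0.16 (SE 0.0753, edgeR adjusted p = 0.642), and 0.0927 without treated NeuT replicate 2. C1R, a protease of the cascade, had 0.89 (SE 0.556), on 2 to 12 counts per Empty library. Dropping treated Empty replicate 1 gave 0.446 for C1R, and dropping replicate 2 gave 1.95.

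At the low end, nuclear copies of mitochondrial genes had a median interaction of -0.21 over 9 tested members. These are stretches of mitochondrial DNA in nuclear chromosomes, and reads can be shared with the mitochondrial genes themselves. Their median change with JG-98 was -1.79 in Empty, where 5 of the 9 were called lower, and -1.60 in NeuT, where 7 were (0.0791% and 1.01% of all genes). MTCO1P12, a copy of a cytochrome oxidase gene, stood at 35.7 and 37.8 CPM in untreated Empty, 10.8 and 9.48 in treated Empty, 41.0 and 37.4 in untreated NeuT, and 10.9 and 6.70 in treated NeuT. Treated NeuT replicate 1 matched treated Empty and replicate 2 was lower, and the interaction of MTCO1P12 was 0.01 and -0.69 with each alone. For the list the 2 values were 0.01 and -0.41. Its median was -0.14 without the length trend, which placed it above the IL-1 family (-0.20), and -0.126 with no filter on low counts. With treated Empty replicate 1 dropped it was -0.132. MTND4P12 and MTND1P23, copies of subunits of complex I, had interactions of -0.33 (SE 0.328) and -0.24 (SE 0.367). Both moved with single libraries, MTND4P12 from -0.555 (treated NeuT replicate 1 dropped) to -0.13 (untreated NeuT replicate 1 dropped) and MTND1P23 from -0.423 to -0.0432 (untreated NeuT replicates 2 and 1 dropped). At an unadjusted p under 0.05, 0 members were lower and 1 was higher (3.11% and 4.68% of all genes). This was MTCO3P12, another cytochrome oxidase copy, named after its value was seen, with an interaction of 0.48 (SE 0.205). It stood at 8.19 and 8.06 CPM in untreated Empty, 2.39 and 2.32 in treated Empty, 6.12 and 5.86 in untreated NeuT, and 2.59 and 2.24 in treated NeuT, with the treated groups overlapping.

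The IL-1 family of inflammatory cytokines and receptors had a median of -0.20, with 10 of 12 members below 0. At an unadjusted p under 0.05, 3 were lower (3.11% of all genes). The family was the 1 list among the 6 lowest in which treated NeuT replicate 1 gave the larger value, -0.24 against -0.10. In edgeR fits with replicate 1 or 2 as the only treated NeuT library the list medians were closer, -0.25 and -0.21. The median was -0.0475 with at least 10 counts required in every library, -0.0514 with libraries thinned to equal depth, and -0.0827 with no filter on low counts, while removing the length trend left it at -0.20. Dropping replicate 2 of Empty gave -0.0947 for the untreated and -0.131 for the treated library. IL1RN, the secreted antagonist of the IL-1 receptor, stood at 25.0 and 25.2 CPM in untreated Empty, 33.3 and 31.7 in treated Empty, 81.0 and 78.8 in untreated NeuT, and 76.6 and 87.1 in treated NeuT. IL1RN rose with JG-98 in Empty (0.37, edgeR adjusted p = 0.034) and its treated and untreated NeuT libraries overlapped, with an interaction of -0.34 (SE 0.0998, edgeR adjusted p = 0.49). CASP1, the protease that matures IL-1β, had an interaction of -0.36 (SE 0.143, edgeR adjusted p = 0.571). IL1B itself had 3 to 7 counts per Empty library and 1786 to 2640 per NeuT library, so its change in Empty could not be resolved at this depth.

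Cholesterol synthesis and uptake had a median of -0.15, with 19 of 24 members below 0. At an unadjusted p under 0.05, 7 were lower and 0 higher (3.11% and 4.68% of all genes). The 2 treated NeuT libraries alone gave -0.11 and -0.15. MVD, an enzyme of the mevalonate pathway, stood at 184 and 173 CPM in untreated Empty, 177 and 197 in treated Empty, 190 and 196 in untreated NeuT, and 159 and 160 in treated NeuT. The treated NeuT libraries were the lowest of the 8, and MVD fell in NeuT by 0.28 on the log2 scale (edgeR adjusted p = 0.0182). Its interaction was -0.34 (SE 0.0848, edgeR adjusted p = 0.349). IDI1 and HSD17B7, a mevalonate pathway enzyme and a sterol enzyme, had -0.27 (SE 0.0786) and -0.27 (SE 0.134). After the length trend was removed the list median was -0.10.

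Mitosis and cytokinesis had a median of -0.14, with 29 of 37 members below 0. At an unadjusted p under 0.05, 9 were lower and 2 higher (3.11% and 4.68% of all genes). JG-98 lowered 6 of the 37 in NeuT (1.01% of all genes) and 0 in Empty (0.0791%) by edgeR. The value was -0.03 with treated NeuT replicate 1 alone and -0.26 with replicate 2 alone, where 0 and 13 members were called lower (0.0283% and 1.62% of all genes). CDC20, an activator of the anaphase-promoting complex, stood at 322 and 306 CPM in untreated Empty, 310 and 295 in treated Empty, 83.8 and 90.0 in untreated NeuT, and 71.5 and 59.5 in treated NeuT. Both treated NeuT libraries were below the untreated ones, and the interaction was -0.35 (SE 0.104, edgeR adjusted p = 0.49). UBE2C, which works with the same complex, had -0.34 (SE 0.123), and HMMR, a spindle protein, had -0.33 (SE 0.11). Without treated NeuT replicate 2 they had -0.201 and -0.217, and without replicate 1 UBE2C had -0.515. DNA replication genes followed the same split, with a median of -0.09 and single-library values of 0.00 and -0.23. Without the length trend the median was -0.10 for mitosis and -0.06 for DNA replication. GINS1, a subunit of the replicative helicase, was the member of that list with a p among the 12 smallest. It stood at 35.8 and 32.7 CPM in untreated Empty, 33.1 and 33.8 in treated Empty, 27.2 and 26.8 in untreated NeuT, and 18.7 and 17.2 in treated NeuT, with an interaction of -0.55 (SE 0.11, edgeR adjusted p = 0.154; DESeq2 adjusted p = 0.0154).

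Luminal keratins and markers had a median of -0.12 with 10 of 11 members below 0, and squamous differentiation genes had -0.11 with 13 of 18 below 0. At an unadjusted p under 0.05, 1 luminal member was lower and 0 were higher, while 0 squamous members were lower and 1 was higher. Of all genes 3.11% were lower and 4.68% higher, so these counts are near the share of all genes. That squamous member was PPL, periplakin, named after its value was seen, with 0.23 (SE 0.0833), or 0.14 and 0.29 with treated NeuT replicates 1 and 2 fitted alone. The treated NeuT libraries alone gave -0.08 and -0.14 for the luminal list and -0.05 and -0.12 for the squamous list. With the length trend removed these were -0.06 and -0.10 for the luminal list and -0.05 and 0.02 for the squamous list. Leaving out a treated Empty library moved the squamous median to -0.01 (replicate 1) or to -0.21 (replicate 2), and dropping a NeuT library gave -0.0664 (untreated replicate 1), -0.186 (untreated replicate 2) or -0.0661 (treated replicate 2). KRT8, a keratin of luminal cells, stood at 1960 and 1890 CPM in untreated Empty, 1980 and 2060 in treated Empty, 2100 and 2220 in untreated NeuT, and 2020 and 1930 in treated NeuT, with an interaction of -0.20 (SE 0.074, edgeR adjusted p = 0.559). The transcription factors FOXA1 and ESR1 had -0.20 (SE 0.116) and -0.19 (SE 0.131). SPRR1B, a cornified envelope protein, had -0.22 (SE 0.13), and between -0.351 and -0.0959 with 1 NeuT library dropped (untreated replicates 2 and 1). SBSN and SPRR3, also of the squamous list, had -0.61 (SE 0.385) and -0.25 (SE 0.394) at levels under 4 CPM. SBSN had -1.18 without untreated Empty replicate 1, -0.208 without untreated Empty replicate 2 and -0.323 when treated Empty replicate 2 was dropped. SPRR3 had -0.783 and 0.123 without treated NeuT replicates 1 and 2. Without the length trend the medians were -0.08 and -0.04. Dropping treated Empty replicate 1 gave -0.0783 for the luminal list.

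Ribosomal and respiratory genes, with median exonic lengths of 2308 to 3066 bases, had negative medians that were larger in size with treated NeuT replicate 2 alone than with replicate 1 alone. Cytosolic ribosomal proteins had -0.11 with all libraries, -0.01 with replicate 1 alone and -0.20 with replicate 2 alone. Mitochondrial ribosomal proteins had -0.10, -0.03 and -0.18, and nuclear-encoded respiratory chain subunits had -0.08, 0.01 and -0.18. After the length trend was removed the 3 medians with all libraries were -0.07, -0.06 and -0.05. With treated Empty replicate 1 dropped they were -0.0657, -0.0668 and -0.0294. With replicate 2 alone edgeR called 23 of 76 cytosolic ribosomal protein genes lower (1.62% of all genes), and 9 once the length trend was removed (1.16%). With replicate 1 alone it called 0 lower (0.0283%).

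For 4 lists of inflammatory, immediate early and hypoxia genes the 2 treated NeuT libraries gave opposite signs, unlike the IL-1 family and complement, where both gave the same sign. Colony-stimulating factors, interleukins and chemokines had a median of -0.27 with replicate 1 alone and 0.18 with replicate 2 alone. NF-kB subunits and feedback targets had -0.11 and 0.22, and AP-1 and immediate early genes had -0.09 and 0.13. Hypoxia-inducible genes had the opposite split, 0.18 and -0.02. With all libraries these 4 medians were -0.01, 0.07, 0.05 and 0.10, and without the length trend 0.07, 0.05, 0.06 and 0.09.

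Among the chaperone lists, the Hsp70 and Hsp110 family had a median of 0.03, which turned to -0.01 without the length trend. It was 0.08 and 0.00 with treated NeuT replicates 1 and 2 alone, and ran from -0.0071 (untreated Empty replicate 2 dropped) to 0.0644 (treated NeuT replicate 2 dropped). Heat shock factor targets had -0.08 with 16 of 22 members below 0, and BAG and other cochaperones had -0.08 with 16 of 19 below 0. With treated NeuT replicates 1 and 2 alone the values were -0.05 and -0.08 for heat shock factor targets and -0.06 and -0.09 for cochaperones. Without the length trend the medians were -0.03 and -0.05, and with treated Empty replicate 1 dropped they were -0.0322 and -0.0438. HSPA8, the constitutive Hsp70, stood at 3210 to 3440 CPM over the 4 Empty libraries and at 3000 to 3520 CPM over the 4 NeuT libraries. Its interaction was -0.09 (SE 0.0714, edgeR adjusted p = 0.769). BAG3 had -0.09 (95% interval -0.25 to 0.07), and EIF2AK1, the gene of HRI, had -0.09 (95% interval -0.26 to 0.08). With 1 library dropped, HSPA8 ran from -0.1462 to -0.0606, BAG3 from -0.1414 to -0.0537 and EIF2AK1 from -0.1385 to -0.0529. Removing the length trend gave -0.0336 for BAG3. HMOX1, the heme oxygenase, had an interaction of 0.05 (95% interval -0.24 to 0.34) while rising in both lines, by 0.57 in Empty (edgeR adjusted p = 0.0134) and 0.62 in NeuT (edgeR adjusted p = 0.00116). Its interaction was 0.153 and -0.0802 without treated NeuT replicates 1 and 2.

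Fits with a single treated NeuT library called 15 genes with replicate 1 (0.0848%; 10 higher, 5 lower) and 751 with replicate 2 (4.24%; 465 higher, 286 lower). Such a fit assumes that the lone library varies like the other groups. The genes called higher with replicate 2 had a median exonic length of 8644 bases and those called lower had 2776 bases, against 4267 for all genes. With the length trend removed, the count was 545 with replicate 2, where the genes called lower had a median length of 6476 bases, and 23 with replicate 1. The genes called higher with replicate 1 included ATF4, NUPR1, SLC7A11, STC2, ALDH1L2, C5AR2, TXNIP, SLC25A6 and IKBKGP1. SLC25A6, a mitochondrial ADP/ATP carrier, stood at 31.3 CPM in treated NeuT replicate 1 and at 11 CPM in replicate 2. The 5 called lower with replicate 1 were HAS2, which makes hyaluronan, SERPINB2, a plasminogen activator inhibitor, the metalloprotease ADAM19, GNL3L and BRD7P2. SERPINB2 stood at 189 and 175 CPM in untreated NeuT and at 154 and 235 in treated NeuT, so the 2 treated libraries lay on either side of the untreated ones.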

How the data were processed

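Poly(A) RNA of 8 MCF-10A libraries was sequenced, and samples were grouped by their titles. The authors deposited raw counts per gene with exonic lengths and coordinates, per the file headers, and 1 table per line with log2 fold changes of treated against untreated cells. The submitters' processing notes name Trim Galore 0.5.0, FastQC 0.11.7, HISAT2 2.1.0, SAMtools 1.9, featureCounts 1.6.3, limma and the build GRCh38. Annotation release, strand setting and treatment of multiply mapped reads are not given in the sources used here, so overlapping and near-identical genes are uncertain. A gene name table gave symbols for 60261 of the 60617 identifiers.

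The counts were used as deposited in edgeR 4.0.16 (R 4.3.3): filterByExpr (minimum count 10, total 15), TMM scaling, 1 robust quasi-likelihood fit of the 4 group means, the contrast of treated minus untreated NeuT minus that of Empty, and Benjamini-Hochberg adjustment over all 17693 genes. A gene is called where the adjusted p is under 0.05. Standard errors are the size of the log2 value divided by the root of F. Single-library changes are log2 CPM (prior count 2) minus the untreated mean of the line. An exact permutation test of 1 gene cannot reach 0.05 in groups of 2. A count of 0 allows up to 3 counts, which is 0.0803 CPM in the shallowest library and 0.0528 in the deepest, for counting error only. No replicate pair agreed within sampling noise, so none was merged. The scripts were tested on simulated data.

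Named genes were the called ones (up to 12 per direction), the 3 members with the largest interaction in each of the 6 highest and 6 lowest lists with at least 6 tested members, all averaging at least 50 counts, a panel of 12 pathway genes, and the 5 genes at each end of the difference between the treated NeuT replicates. Others were named after their values were seen, and some genes under this rule are not reported here. The members and lists were chosen with earlier results of these data known. Alternatives were other scalings and filters, DESeq2 1.42.0, limma-voom (limma 3.58.1), non-robust dispersion, a replicate block, thinning and leaving out each library. Removal of the length trend (lowess, span 0.3, fitted on genes whose log2 CPM averaged at least 3) was chosen after seeing the data.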

Additional observations from a re-analysis of the deposited data

Results flagged for a closer look

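The change of TXNIP with JG-98 differed between the lines by 0.80 on the log2 scale (edgeR adjusted p = 0.000182 for the interaction), higher in NeuT with either treated NeuT library. This drew attention because the 2 lines moved in opposite directions. Groups of 2 libraries are too small for a check for single outlying libraries.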

How the results depend on the processing

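TXNIP stayed called under all 18 alternatives, with interactions of 0.74 to 0.84. The count of interaction calls did not hold. DESeq2 gave 26 (23 higher, 3 lower), no filter on low counts 138 (114 higher, 24 lower), total counts without scaling factors 2 (2 higher), non-robust dispersion 3 (3 higher), and removal of the length trend, chosen after seeing the data, 2 (1 higher, 1 lower). Leaving out 1 library at a time gave 1 to 751 calls, 1 to 465 higher and 0 to 286 lower: 751 without treated NeuT replicate 1, 15 without treated NeuT replicate 2, 6 and 3 without untreated NeuT replicates 2 and 1, 2 without treated Empty replicate 1, and 1 without each of the others. JG-98 calls in Empty were 151 with DESeq2, 282 without the filter and 9 to 389 with 1 library left out (389 and 379 without treated NeuT replicates 2 and 1, 9 and 33 without treated Empty replicates 1 and 2, 16 and 13 without untreated Empty replicates 1 and 2, 37 and 38 without untreated NeuT replicates 1 and 2). JG-98 calls in NeuT were 1000 without the filter and 134 to 2112 with 1 library left out (2112 and 356 without treated NeuT replicates 1 and 2, 134 and 140 without untreated NeuT replicates 1 and 2, 327 and 325 without untreated Empty replicates 1 and 2). Removal of the length trend gave list medians of -0.0998 for cholesterol and -0.0819 for luminal markers.

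With 1 library left out, list medians ran from 0.1575 to 0.5552 for ATF4 and CHOP targets, 0.0733 to 0.1535 for tRNA synthetases, 0.0933 to 0.2785 for the EGF family, 0.0026 to 0.212 for adhesion, -0.2633 to -0.0456 for mitosis, -0.4193 to 0.0023 for nuclear copies of mitochondrial genes, -0.1492 to -0.0783 for luminal markers, -0.2521 to -0.0947 for the IL-1 family, -0.2135 to -0.0118 for squamous genes and 0.0368 to 0.172 for amino acid and one-carbon synthesis. Treated NeuT replicate 2 when left out set the low end of the first 4 and of one-carbon synthesis and the high end for mitosis and the nuclear copies. Of 951 pairs of a named gene and a setting, 864 kept direction and side of the threshold, 79 passed only under the alternative, 0 lost a call and 8 changed direction, all with 1 library left out: VARS1 ran from -0.6572 to 3.493, ERBB2 from -0.07 to 0.0296, HMOX1 from -0.0802 to 0.1532, ITGA2 from -0.036 to 0.6134, SPRR3 from -0.7829 to 0.1229 and MTCO1P12 from -0.6916 to 0.0023. Replicate numbers carry no stated pairing, and deviations of same-numbered libraries correlated by -0.101 to 0.244 across genes, so the replicate block is an alternative alone: it gave 1 interaction call, 66 JG-98 calls in Empty and 593 in NeuT. The cause of these changes was not tested.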

Other observations

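Some genes varied widely between replicates. Of 13143 genes averaging at least 50 counts, 26 had replicates that differed by more than 2 on the log2 scale in at least 1 group. Untreated Empty had 11 such genes and treated Empty 4, while NeuT had 8 untreated and 12 treated. In treated NeuT, those furthest toward replicate 1 included PARN, IFI27L2, TCEA1P2 and 1 gene without a symbol, and the 5 furthest toward replicate 2 were ABR, NTAN1, CDK7, YTHDC1 and INTS3. PARN, a poly(A) nuclease, stood at 6.54 and 0.403 CPM in untreated Empty, 2.26 and 5.80 in treated Empty, 0.292 and 0.241 in untreated NeuT, and 4.77 and 0.315 in treated NeuT. CDK7, the kinase of transcription factor TFIIH, stood at 5.11 CPM in treated NeuT replicate 2 and at 0.351 to 0.814 CPM in the other 7 libraries. These values are a description, with no test.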
